A study of Mus musculus with 2 samples.

Results

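Nanog occupancy was examined around 8 genes of the Hippo signaling pathway, namely the DNA-binding factors Tead1, Tead2 and Tead3, the coactivators Yap1 and Wwtr1 (which encodes Taz), the kinase gene Lats2, the angiomotin family gene Amotl2 and the Tead cofactor gene Vgll4. For each gene, the Nanog peaks centered within 100 kb of its transcription start site (TSS, the 5′ end of the annotated gene) were collected, together with any peak farther away for which it was the nearest protein-coding gene. This gave 19 of the 8737 distinct peaks in the list, around 8 of the 21755 protein-coding genes on chromosomes 1 to 19 and X. The peaks came from 1 anti-Nanog ChIP made in Bruce-4 cells, an established mouse embryonic stem cell (ESC) line grown in serum with LIF, using the antibody D1G10 on formaldehyde-fixed chromatin. An input of the same cells was sequenced as well and has no peak list here. Neither sample has a replicate, so no value below carries a replicate error. The list holds positions alone, without a height or score, and it therefore shows where peaks were called but not how strong they were. A peak near a gene is a position of Nanog, not a measurement of that gene's expression. Of 5 genes that mark ESCs (Pou5f1, Sox2, Klf4, Esrrb and Tfcp2l1), 4 had a peak within 100 kb, as did 54.8% of all protein-coding genes. Each of these 4 had 5 or 6 peaks there, and 1.94% of protein-coding genes had 5 or more. The closest peak to the remaining gene, Esrrb, lay 110.0 kb from its TSS inside the gene.

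Hippo signaling is a kinase cascade that controls whether Yap and Taz enter the nucleus. When the cascade is active, Lats kinases phosphorylate Yap and Taz, which are then retained in the cytoplasm or degraded. When it is inactive, Yap and Taz bind Tead proteins on DNA and activate transcription. In the early mouse embryo this switch separates the outer cells, where nuclear Yap and Tead4 activate the trophectoderm program, from the inner cells, from which ESCs are derived. Nanog is a homeodomain transcription factor of those inner cells and of ESCs.

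Peaks were found around most of the 8 genes, and 10 of the 19 had one of the 8 as their nearest protein-coding gene. A peak lay within 100 kb of the TSS of 7 genes, Tead3 being the exception, and 54.8% of all protein-coding genes had one. With 3 peaks each, Tead1, Yap1, Lats2, Amotl2 and Vgll4 reached a number that 11.4% of protein-coding genes reached or exceeded. Tead2 had 2 peaks within the window and Wwtr1 had 1. The mean over the 8 genes was 2.25 peaks, against 1.00 for all protein-coding genes, and the medians were 3 and 1. Being the nearest protein-coding gene of a peak was restricted to Tead1 (4 peaks), Amotl2 (3) and Vgll4 (3), that is 3 of 8 genes, where the share among all protein-coding genes was 24.6%. Only 3.38% of protein-coding genes were nearest to 3 or more peaks, a number that all 3 of these genes reached. With 8 genes proposed when results of these peaks were already known, these counts are a description and no test was made. The neighborhoods differ in how many genes compete for a peak: Tead1 had no other protein-coding TSS within 100 kb, whereas Tead2 had 14, and the medians were 1.5 for the 8 genes and 3 for all genes. The part of gene spacing in the counts was not tested. The limit of 100 kb fell just beyond the outermost peaks of Yap1 (96.7 kb) and Lats2 (94.7 kb), and the next peak outside it was 103.6 kb upstream of Tead2.

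**Figure D1:**
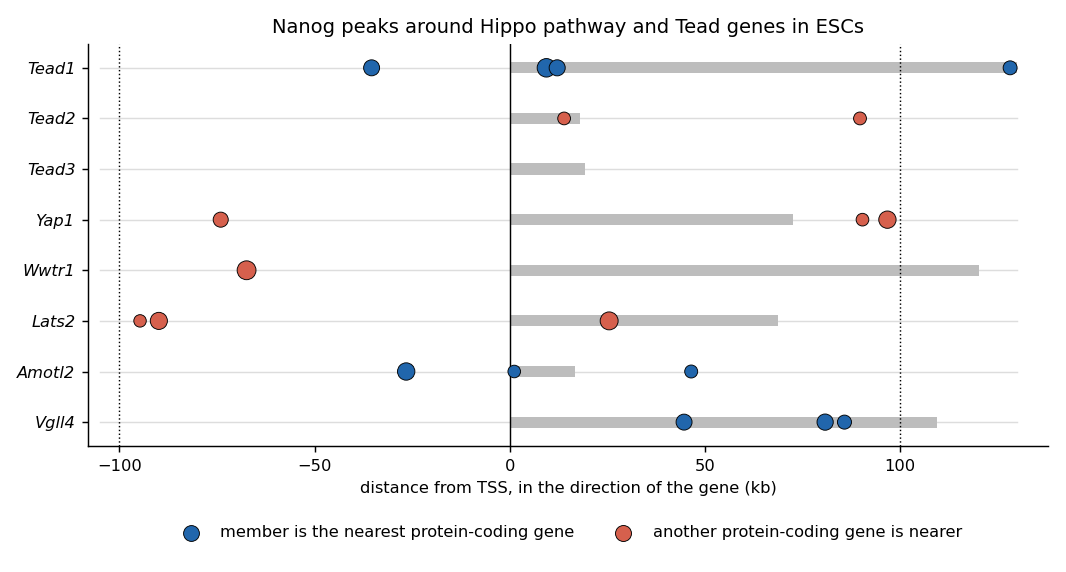
Each row is a gene with its TSS at 0, the horizontal axis is the distance from the TSS in kb in the direction of transcription, gray bars are gene bodies (that of Tead1, which is longer than the axis, is cut at the right) and circles are Nanog peaks, larger when wider. Blue circles are peaks for which the gene is the nearest protein-coding gene, all of them at Tead1, Amotl2 and Vgll4, red circles are nearer to another gene, and the dotted lines mark 100 kb.

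**Figure D2:**
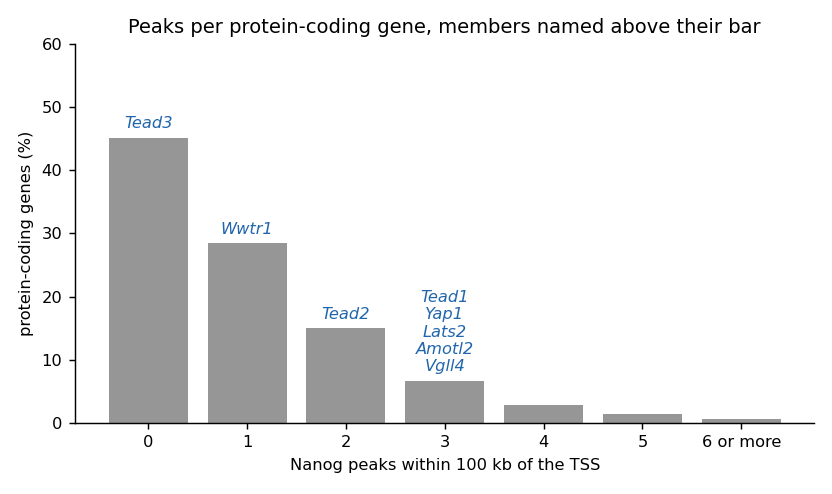
Bars give the percentage of the 21755 protein-coding genes (vertical axis) with each number of Nanog peaks within 100 kb of the TSS (horizontal axis), and the 8 genes are named above the bar they belong to. At 3 peaks, where 6.66% of protein-coding genes fall, stand 5 of the 8 genes.

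The sequences of the peaks closest to the TSS are shown for 6 of the 7 genes with a peak within 100 kb, because they are the most proximal Nanog positions of these genes, and another peak of Tead1 is added, chosen after its motifs were seen, for its place beside an internal transcript start. They are read 5′ to 3′ on the plus strand of GRCm38, cut to 300 bases around the peak center where the peak is wider, and to 30 bases around the motif match for Amotl2, whose peak covers untranslated sequence. Capitals mark matches to the motifs listed with the motif counts.

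Tead1, intron 1, chr7:112688556-112688855, with a Klf match: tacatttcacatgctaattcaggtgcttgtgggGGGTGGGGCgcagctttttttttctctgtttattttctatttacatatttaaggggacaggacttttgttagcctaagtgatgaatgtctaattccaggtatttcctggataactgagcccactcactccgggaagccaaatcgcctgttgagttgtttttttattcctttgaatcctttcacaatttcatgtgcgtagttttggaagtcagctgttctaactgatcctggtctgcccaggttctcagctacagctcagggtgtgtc
Tead1, intron 1, chr7:112691315-112691614, with Sox, Nanog core and Klf matches: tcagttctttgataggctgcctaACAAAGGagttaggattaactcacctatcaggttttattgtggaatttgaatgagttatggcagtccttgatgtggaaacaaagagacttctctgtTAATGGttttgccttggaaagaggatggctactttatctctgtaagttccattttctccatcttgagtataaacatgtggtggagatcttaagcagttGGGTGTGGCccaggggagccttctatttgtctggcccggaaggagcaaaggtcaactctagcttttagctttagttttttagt
Tead2, intron 8, chr7:45229550-45229798, with a Sox match: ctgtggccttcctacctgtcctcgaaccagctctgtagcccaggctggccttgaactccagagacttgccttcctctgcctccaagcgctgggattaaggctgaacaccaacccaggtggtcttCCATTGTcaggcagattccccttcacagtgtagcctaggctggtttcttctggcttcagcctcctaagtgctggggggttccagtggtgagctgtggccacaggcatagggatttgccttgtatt
Wwtr1, upstream, chr3:57643189-57643488, with an Esrrb match: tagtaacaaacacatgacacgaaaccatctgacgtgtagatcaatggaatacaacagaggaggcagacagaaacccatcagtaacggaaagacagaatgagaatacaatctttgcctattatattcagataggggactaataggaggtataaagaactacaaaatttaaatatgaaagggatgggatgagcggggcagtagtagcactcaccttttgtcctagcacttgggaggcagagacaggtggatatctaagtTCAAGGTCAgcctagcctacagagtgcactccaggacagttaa
Lats2, intron 2, chr14:57732780-57733079, with octamer and Nanog core matches: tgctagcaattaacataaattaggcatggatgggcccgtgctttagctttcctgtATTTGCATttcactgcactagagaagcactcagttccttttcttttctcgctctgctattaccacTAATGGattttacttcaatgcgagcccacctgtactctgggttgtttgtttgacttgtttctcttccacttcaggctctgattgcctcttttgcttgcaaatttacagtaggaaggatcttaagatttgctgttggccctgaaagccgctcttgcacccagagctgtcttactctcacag
Amotl2, exon 1, chr9:102717727-102717756, with a Tead match: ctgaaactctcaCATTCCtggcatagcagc
Vgll4, intron 2 of ENSMUST00000147639.7, chr6:114925196-114925495, with Tead and Sox matches: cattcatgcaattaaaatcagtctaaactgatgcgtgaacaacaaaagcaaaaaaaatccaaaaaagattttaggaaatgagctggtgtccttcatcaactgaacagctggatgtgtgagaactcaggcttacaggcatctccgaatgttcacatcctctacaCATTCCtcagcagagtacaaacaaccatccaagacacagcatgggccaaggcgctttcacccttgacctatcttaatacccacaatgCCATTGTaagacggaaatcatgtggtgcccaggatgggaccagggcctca

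The Tead genes encode the proteins that bring Yap and Taz to DNA, and the 3 paralogs differed in their Nanog peaks. Tead1 (ENSMUSG00000055320.17, chromosome 7, 112679318 to 112906807, plus strand) was nearest to 4 peaks. The widest of them, at 112688443 to 112688967 (525 bp, wider than 93.9% of all peaks), was centered 9387 bp downstream of the TSS. It was followed after a gap of 2.30 kb by a peak at 112691267 to 112691662 (396 bp), 12146 bp downstream. Both lie in intron 1, and the latter ends 36 bp before the start of a shorter coding transcript, ENSMUST00000171373.1, whose start is at 112691698. Its sequence, printed above, is the only one of the 19 with Sox, Nanog core and Klf matches together. Another peak, at 112807350 to 112807647 (298 bp), lies in intron 2 at 128.2 kb, beyond the 100 kb limit, and was included because no other protein-coding TSS is closer. The remaining peak, at 112643727 to 112644117 (391 bp), is 35.4 kb upstream, in an intron of 2310014F06Rik, an antisense-oriented long noncoding RNA gene whose annotated extent reaches across the Tead1 TSS. The 2 outer peaks each held a Tead match, and the 2 in intron 1 did not.

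Tead2 (ENSMUSG00000030796.17, chromosome 7, 45215753 to 45233644, plus strand) had a narrow peak of 249 bp inside the gene, at 45229550 to 45229798 in intron 8 of the transcript ENSMUST00000107801.9. It was centered 13.9 kb from the Tead2 TSS but 9.44 kb from that of Cd37, a tetraspanin gene, so that by the nearest-gene rule it belonged to Cd37. Soft-masked repeats made up 51.8% of this peak, although not its center, and its Sox match lies 3 bp from the center. The other peak within 100 kb, at 45305350 to 45305602 (253 bp), fell in a coding exon of Trpm4, 89.7 kb from the Tead2 TSS and with 3 protein-coding TSSs in between. Tead3 (ENSMUSG00000002249.21, chromosome 17, 28331671 to 28350817, minus strand) had no peak within 100 kb. Its closest, at 28466770 to 28467070 (301 bp), lay 116.1 kb upstream and was nearest to Fkbp5. In order of the closest peak the 3 paralogs among the 8 genes were thus Tead1 (9.39 kb), Tead2 (13.9 kb) and Tead3 (116.1 kb). Tead4, which is not among the 8, had a peak closer still, at 4.25 kb. For comparison, the median over all protein-coding genes was 80.3 kb.

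Yap1 and Wwtr1 encode the coactivators Yap and Taz, and neither had a Nanog peak in its gene body or was the nearest protein-coding gene of one. Yap1 (ENSMUSG00000053110.13, chromosome 9, 7931999 to 8004596, minus strand) was flanked on both sides. Upstream, a peak of 348 bp lay 74.1 kb away in an intron of Cep126, with the TSS of Cfap300 in between. Downstream, beyond the 3′ end of the gene, a pair of peaks 6.04 kb apart lay at 7914119 to 7914364 (246 bp, 90.4 kb from the TSS) and 7907619 to 7908078 (460 bp, 96.7 kb). These are between genes, with no other protein-coding TSS between them and that of Yap1, and both were nearer to Birc3. The wider of the pair carried 2 Sox matches, at -8 and 10 bp from its center on the plus strand, and an AP-1 match. The narrower one was the only peak of the 19 without a match to any motif searched. Wwtr1 (ENSMUSG00000027803.14, chromosome 3, 57455649 to 57575910, minus strand) had a single peak, at 57643066 to 57643610, 67.4 kb upstream and between genes. At 545 bp it was the widest of the 19 and wider than 95.1% of all peaks, and it was nearer to Commd2 (8.38 kb), although no protein-coding TSS separates it from Wwtr1. Soft-masked repeats made up 49.9% of this peak, although not its center. The next peak around Wwtr1 was 298.2 kb away.

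Lats2 and Amotl2 act upstream of Yap: Lats2 phosphorylates it, and Amotl2 is a junction-associated scaffold that binds Yap and keeps it out of the nucleus. Both are also known as genes that Yap and Tead activate in turn. Lats2 (ENSMUSG00000021959.16, chromosome 14, 57689662 to 57758388, minus strand) had a peak of 494 bp in intron 2, at 57732683 to 57733176, 25.5 kb downstream of the TSS. By the nearest-gene rule it went to Gm49361, an annotated protein-coding gene that overlaps Lats2 at this position. It is 1371 bp from the start of another Lats2 coding transcript (ENSMUST00000038381.13), and it was the only peak of the 19 with an octamer together with a Nanog core match. A pair of peaks 4.47 kb apart lay far upstream in introns of Zdhhc20, at 57848066 to 57848514 (449 bp, 89.9 kb) and 57852989 to 57853226 (238 bp, 94.7 kb), with 3 protein-coding TSSs in between. Both of these held a Tead match, and repeats made up 80.8% of the wider one.

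Amotl2 (ENSMUSG00000032531.15, chromosome 9, 102716672 to 102733418, plus strand) had the most promoter-proximal peak of the 8 genes and was the only one with a peak within 5 kb of the TSS, where 6.25% of all protein-coding genes had one. The peak, at 102717695 to 102717937, was narrow (243 bp) and GC-rich (66.3%), and its center was 1144 bp downstream of the TSS in untranslated sequence of exon 1. It begins 27 bp after the start of the transcript ENSMUST00000035121.13. Its single motif match was Tead, shown above. A wider peak of 462 bp with similar GC content (65.6%) and a Sox match lay 26.5 kb upstream, at 102689906 to 102690367, and a narrow one of 258 bp with an AP-1 match lay 46.5 kb downstream, at 102763021 to 102763278. Both are intergenic and were assigned to Amotl2.

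Vgll4, a cofactor that competes with Yap for Tead and is known to repress Tead targets, had all its peaks inside the gene (ENSMUSG00000030315.15, chromosome 6, 114860628 to 114969994, minus strand). They were intronic, at 114925150 to 114925540 (391 bp), 114889003 to 114889406 (404 bp) and 114884104 to 114884405 (302 bp), which is 44.6, 80.8 and 85.7 kb downstream of the TSS. The first lay in intron 2 of the transcript ENSMUST00000147639.7, and the others in intron 2 of ENSMUST00000032459.13, which starts downstream of the first peak. The last 2 were separated by 4.60 kb. Tead matches were present in the first 2, at 16 and -29 bp from their centers on the plus strand, and the remaining peak had Sox and Klf matches. Counting genes of every type, Vgll4 remained nearest to all 3, whereas of the other peaks only the promoter peak of Amotl2 still had one of the 8 genes as its nearest. Of the 3 genes of 100 to 250 kb among the 8, Vgll4 and Tead1 had 3 peaks each in the body and Wwtr1 had 0, and 5.59% of the 1752 protein-coding genes of that length had as many, with a mean of 0.659 peaks.

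The distances above use a single TSS per gene, and several of these genes have internal starts. When every annotated transcript start was considered, 5 of the 8 genes had a peak within 5 kb of one: Amotl2 (148 bp), Tead1 (234 bp), Lats2 (1371 bp), Tead2 (1635 bp) and Vgll4 (3524 bp). Yap1 (51.6 kb), Wwtr1 (67.4 kb) and Tead3 (116.1 kb) were farther away. The corresponding share of all protein-coding genes was 9.41%. These genes have many annotated starts, a median of 8.5 against 3 for all protein-coding genes, and among the genes with 4 or more starts, which 7 of the 8 have, the share was 13.6%. Those 7 have from 7 to 16 starts, and the comparison was not matched to them more closely. Transcript use in these cells was not measured here.

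The width and sequence of the peaks were not used in collecting them. The 19 peaks had a median width of 391 bp (quartiles 255.5 and 454.5 bp, range 238 to 545 bp), and the other 8716 peaks had a median of 319 bp (quartiles 265 and 393 bp), so the upper quartile and the median were higher while the lower quartile was not. Narrow peaks, close to the smallest width of 235 bp in the list, occurred at Tead2, Yap1, Lats2 and Amotl2, and every peak of Vgll4 and Wwtr1 was above 300 bp. The 10 peaks assigned to Tead1, Amotl2 and Vgll4 had the same median of 391 bp, and the 9 nearer to other genes had a median of 348 bp. Peaks of 1 library are not replicates, and this difference was not tested.

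**Figure D3:**
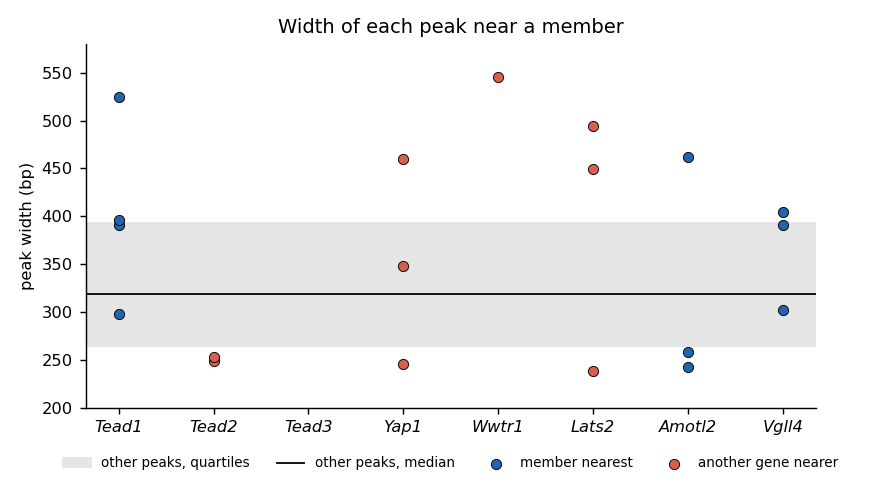
Points are the 19 peaks, by gene on the horizontal axis, with width in bp on the vertical axis (which starts at 200 bp), blue where the gene is the nearest protein-coding gene and red where another gene is nearer. The gray band and line are the quartiles (265 and 393 bp) and median (319 bp) of the other peaks, and at least 1 point each of Tead1, Yap1, Wwtr1, Lats2, Amotl2 and Vgll4 lies above the band.

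At their centers, 12 of the 19 peaks were intronic (63.2%, exact Clopper-Pearson 95% interval 38.4 to 83.7) and 5 intergenic (26.3%, 9.15 to 51.2), with 1 in a coding exon and 1 in untranslated sequence. Among the other peaks 47.5% were intronic and 46.3% intergenic, values inside both intervals. The middle base was in a repeat for 2 peaks (10.5%, 1.30 to 33.1) against 20.4% of the others. Median GC content was 48.5%, ranging from 39.1% at the upstream peak of Yap1 to 66.3% at the Amotl2 promoter, and that of the others was 47.7%. Another peak lay within 12.5 kb, edge to edge, for 8 of the 19 (42.1%, 20.3 to 66.5), which form a pair each at Tead1, Yap1, Lats2 and Vgll4, and for 24.1% of the others. Neighboring peaks are not independent, and all these intervals cover counting error only.

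Consensus motifs of Tead factors, of Nanog and of other ESC or AP-1 factors were searched on both strands over the whole peak, without mismatch unless stated. They were Tead (GGAATG), Nanog core (CCATTA), Sox (CCATTGT or CCTTTGT), octamer (ATGCAAAT), Esrrb (TCAAGGTCA), AP-1 (TGACTCA or TGAGTCA), Klf (GCCACACCC, GCCACGCCC, GCCCCACCC or GCCCCGCCC) and the Oct4-Sox2 composite with at most 2 mismatches, whose Oct4 part is the octamer. A match is a description of the letters and not a measured site.

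Tead and Sox were the most frequent, each in 7 of the 19 peaks (36.8%, 16.3 to 61.6). The other peaks had Tead in 25.4% and Sox in 28.1%, both within those intervals. In 38 flanking windows of the same widths, 1 kb beyond either edge, Tead occurred in 15.8% (6.02 to 31.3) and Sox in 10.5% (2.94 to 24.8). Both flank values lie below the interval of the peaks, that of Tead only just, although the intervals overlap. The same holds for Klf, in 2.63% of the flanks (0.0666 to 13.8). Esrrb and the octamer were each in 0% of the flanks (0 to 9.25), and 0 lies below any interval that rests on a match. The flank values of AP-1 (5.26%), the Nanog core (18.4%) and the composite (0%) lay inside the intervals of the peaks. In 200 bp around the peak centers, a window shorter than the flanks, Sox was in 15.8% of the peaks, Tead in 31.6% and Klf in 10.5%. Tead matches were found at Tead1 (2 peaks), Lats2 (2), Vgll4 (2) and Amotl2 (1), and at none of the peaks of Tead2, Yap1 or Wwtr1. Klf was present in 4 peaks (21.1%, 6.05 to 45.6, others 8.97%), at Tead1, Tead2 and Vgll4, and Esrrb in 2 (10.5%, 1.30 to 33.1, others 3.51%), at Wwtr1 and Lats2. Soft-masked repeats made up 49.9% and 80.8% of these 2 Esrrb peaks, and whether the matches themselves lie in repeats was not tested. The Nanog core was in 2 peaks (10.5%, others 18.1%, flanks 18.4%), AP-1 in 2 (others 8.03%) and the octamer in 1 (5.26%, others 5.73%). No peak held the composite, a count that allows a share of up to 17.6% and compares with 1.40% of the others. At this number of peaks, no single motif could be told apart from its share in the other peaks.

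Counting all motifs together, 18 of the 19 peaks had at least 1 match. The share without any was 5.26% (0.133 to 26.0) near these genes, 33.6% (32.6 to 34.6) in the other peaks, which is outside that interval, and 57.9% (40.8 to 73.7) in the flanks. Width enters this count. Among peaks of 350 bp or wider, 0 of 10 near these genes (0 to 30.8) and 25.1% of the others had no match. Among narrower peaks the values were 1 of 9 (0.281 to 48.2) and 39.0%. In each width class the share of the others lay within the interval. In a fixed window of 200 bp around the center, 5 of 19 peaks had none (26.3%, 9.15 to 51.2), and the share of the others, 47.6%, lay within that interval. The comparison over all motifs was made after the matches were seen.

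**Figure D4:**
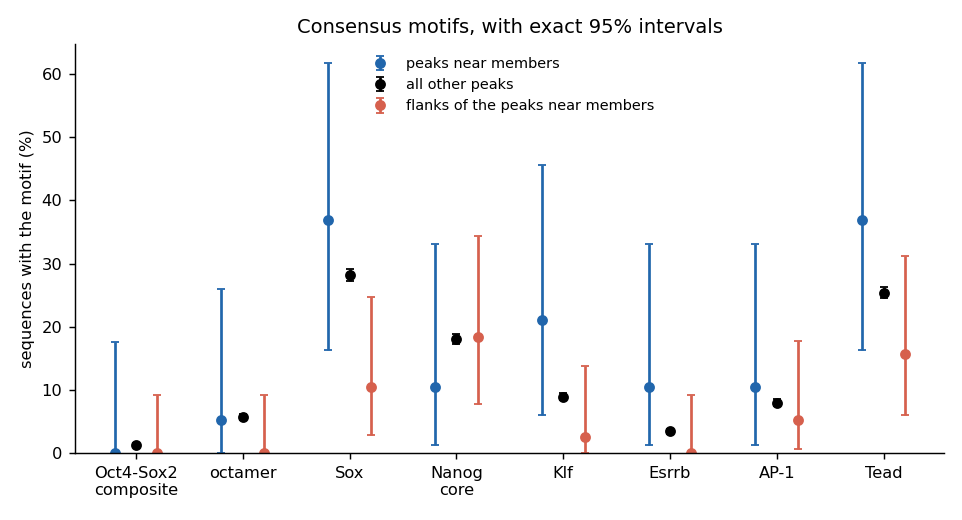
The vertical axis is the percentage of sequences with at least 1 match to the motif on the horizontal axis, for the 19 peaks near the 8 genes (blue), the other 8716 peaks (black) and 38 flanking windows (red), with exact 95% intervals as bars. The blue interval includes the black value for every motif.

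The rest of the pathway was examined with a list of 34 textbook genes. A peak within 100 kb was present for 21 of them, beside the 54.8% given above for all protein-coding genes, and 12 were the nearest protein-coding gene of a peak, beside 24.6% of all protein-coding genes. By role, those with a peak within 100 kb were 7 of 10 core kinases and adaptors, 8 of 13 upstream regulators, 2 of 4 Tead partners or paralogs and 4 of 7 transcriptional targets. The median closest distance was 73.5 kb, near the 80.3 kb of all protein-coding genes, and that of the 8 genes was 35.1 kb. Stk3, Ajuba, Tead4, Birc5 and F3 reached 3 or more peaks within 100 kb, that is 5 of the 34, beside 11.4% of all protein-coding genes. Of the 34, only Tead4 and Vgll3 were closer than 5 kb to a peak, beside 6.25% of all protein-coding genes. These genes are described below because they met these limits, not because the list stood out in them.

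Among the Tead partners and paralogs, Tead4, the paralog required for the trophectoderm, had 3 peaks, all in its introns and all assigned to it, at 4.25, 18.5 and 46.1 kb from the TSS. The first held Klf and AP-1 matches, the middle one a Tead match and the farthest none. Vgll3, a relative of Vgll4, had a peak of 279 bp centered 58 bp upstream of its TSS (chromosome 16, 65815060 to 65815338), with a Tead match, and this was the closest peak to a TSS among the 34 genes. Vgll1 and Vgll2 had none within 100 kb, with closest peaks at 926.1 and 223.9 kb. Among the kinases, Stk3 (Mst2), which activates the Lats kinases, had 3 peaks, of which an intronic one of 303 bp at 13.2 kb was assigned to it and held a Tead match, while another had octamer and Nanog core matches and the remaining one none. Stk4 (Mst1) had its closest peak at 5.26 kb and Lats1, the paralog of Lats2, at 37.7 kb. The scaffold gene Sav1 had none within 100 kb (116.3 kb). Among the upstream regulators, Ajuba, a LIM protein that inhibits Lats kinases, had 4 peaks within 100 kb, from 23.4 to 36.0 kb away, none of which was nearest to it. The angiomotin paralogs of Amotl2 were farther from a peak, at 80.3 kb for Amotl1 and 507.0 kb for Amot. Among the target genes, Birc5 and F3 had 3 peaks each, 39.1 to 92.8 kb and 70.8 to 87.4 kb away and all nearer to other genes. Ccn2, a widely used readout of Yap activity, had 1 at 20.6 kb, and its relative Ccn1 had none within 100 kb (206.6 kb). In the 18 peaks of Stk3, Ajuba, Tead4, Vgll3, Birc5 and F3, Tead was present in 5 (27.8%), Sox in 4 (22.2%) and no motif in 5, shares to be read beside the 25.4%, 28.1% and 33.6% of the peaks away from the 8 genes. The 18 include a peak 770.9 kb from the TSS of Vgll3, beyond 100 kb, for which Vgll3 is the nearest protein-coding gene.

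**Figure D5:**
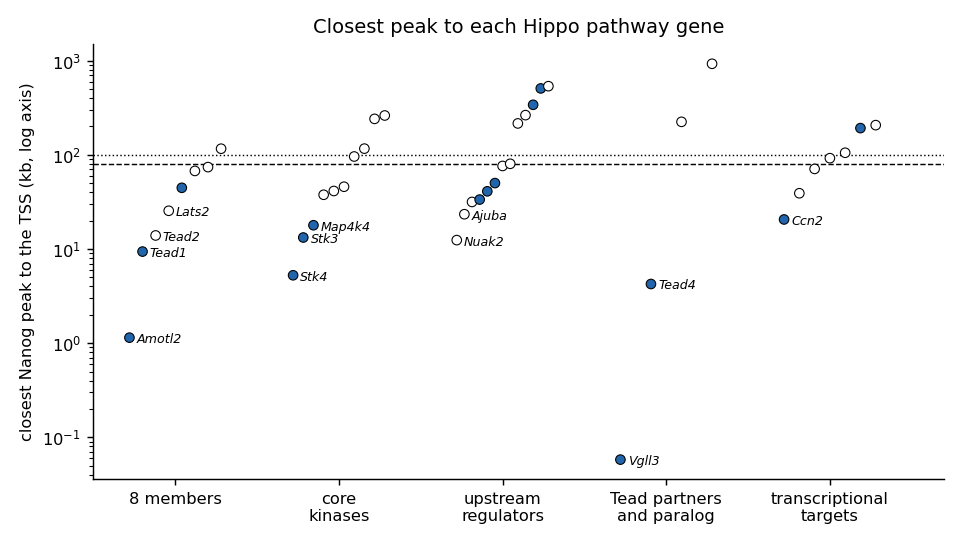
Each point is a gene, the vertical log axis is the distance in kb from its TSS to the closest Nanog peak, and genes are grouped by role, with the 8 genes at the left and names given below 30 kb. Filled points are genes that are the nearest protein-coding gene of a peak, the dashed line is the median of all protein-coding genes (80.3 kb) and the dotted line marks 100 kb, with Vgll3 lowest at 0.058 kb.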

How the data were processed

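ChIP-seq libraries of Bruce-4 ESCs were made by the authors for Nanog (1 sample) and input (1 sample). Per the study's methods and the labels, FastQC served for read quality, Bowtie2 for alignment to mm10, BEDtools and SAMtools for removing low-quality, duplicate, mitochondrial and blacklisted reads, and MACS2 for the peak call. The threshold and control of the call are not given in the sources used here. The deposited list gives chromosome, start and end in base pairs, with no fold, p-value or read count, so the reads behind a peak cannot be read from it. Its 8860 lines hold 8737 distinct intervals, used once each, of which 2 on unplaced scaffolds were left out.

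Positions, 1-based, were compared with GENCODE vM21 (GRCm38, the assembly of mm10), and sequence was read from GRCm38.p6 (NCBI) with pysam 0.24.0. Distance was measured from the middle base of the peak, and the nearest gene was limited to 1000 kb. That base also set the annotation, coding exons taking precedence over untranslated, other exonic and intronic sequence. Distances and motif searches were checked on simulated data with known answers. Intervals are exact Clopper-Pearson (scipy 1.17.1). No p-value was computed, since peaks of 1 sample are not replicates. The 8 genes, the list of 34 genes and the motifs were chosen with earlier results of these data known. Named were all 8 genes with all their peaks, and, of the 34, those with a peak within 5 kb or 3 or more within 100 kb, plus Tead4. Stk4, Lats1, Sav1, Vgll1, Vgll2, Amot, Amotl1, Ccn1 and Ccn2 were named after their values were seen. Counts by transcript start, gene body, neighboring peaks and all motifs together were added after the list was seen. The sequence of the upstream peak of Yap1 is not reported here.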

Additional observations from a re-analysis of the deposited data

How the results depend on the processing

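Of 52 alternative values for the comparisons, 42 stayed within 1.5 times a count, width or distance or within the interval of a share, and 10 moved. Within 20 kb the genes with a peak fell from 7 to 3 of 8, and from 21 to 6 of the 34 listed genes, where the share of all protein-coding genes was 18.0% instead of 54.8%. At 50 kb the counts were 5 of 8 and 15 of 34, with 35.2% of all protein-coding genes. These were lower than in the main window but within the limit of 1.5 times. The median closest distance of the 8 genes went from 35.1 kb to 2.58 kb with the TSS of every transcript (71.2 kb for all protein-coding genes) and to 56.0 kb in peaks at or above the median width, where the peaks near the genes numbered 11 instead of 19, there being fewer peaks. In 200 bp around the center, where fewer bases were searched, the Sox share went from 36.8% to 15.8% and the Tead share from 36.8% to 31.6%. The part of window length in this difference was not tested, and the Sox share of the other peaks in that window is not given here. Among the 10 peaks assigned by nearest protein-coding gene, the octamer, the Esrrb motif, coding exons and repeats at the center all had a share of 0, each resting on 1 or 2 peaks. For single genes, 27 of 40 counts stayed and 13 moved. Yap1 and Wwtr1 had 0 peaks within 50 kb, Lats2, Tead2 and Vgll4 had 1. A peak list shows neither the sites below the threshold of the call nor their number. No paired analysis was possible because a single immunoprecipitated library, with no group to pair it with, gave the peaks, and for the same reason no replicate could be left out.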
